A study of Mus musculus with 5 samples.

Results

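The genes described here are 8 markers and regulators of the cap mesenchyme of the developing mouse kidney: Six2, Cited1, Osr1, Eya1, Sall1, Meox1, Itga8 and Crym. They were chosen by name and make up 8 of the 24563 genes on the array and 10 of its 39414 probes that could be measured on all arrays, since Six2 has 3 probes and each other member has 1. The data are 5 one-colour microarrays of tissue from C57BL/6 mice, and each of the 5 groups has 1 array. They are the kidney of the E13.5 embryo, the kidney of the newborn (P0), the adult kidney at 8 weeks, tissue recovered 2 weeks after a kidney bud was transplanted, and tissue recovered 4 weeks after such a transplantation. No mutant allele and no drug treatment is named for any group. What cells the buds were made of, where they were placed, the sex of the animals and whether RNA was pooled is not stated by the labels. With 1 array a group there is no replicate, so no difference below has a p-value or an error between animals.

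The cap mesenchyme is the layer of progenitor cells that surrounds each tip of the branching ureteric bud. These cells renew themselves and send out Gdnf, the signal that keeps the bud branching, and in answer to Wnt9b from the bud a part of them turns on Wnt4, becomes epithelium and forms a nephron. Six2 is the transcription factor that holds the cells in the progenitor state, and Cited1, a transcriptional co-activator, marks the least committed of them. Osr1 acts earlier, in the intermediate mesoderm, and Eya1, a co-activator and phosphatase, works together with Six2 and its relatives. Sall1 is a zinc finger protein that shares targets with Six2, Meox1 is a homeobox protein, and Itga8 is an integrin subunit by which the mesenchyme binds nephronectin on the bud. Crym binds thyroid hormone inside the cell and is known from expression surveys as a gene of the cap mesenchyme. In the mouse the progenitors are used up within days of birth, so that the adult kidney has none.

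The start regions of members differed in the letters of common promoter elements. RefSeq (GRCm38.p6) held promoter windows for 4 of the 8 members, Six2, Cited1, Sall1 and Itga8, and these are shown because they include Six2 and Cited1, the members with the widest range over the arrays. Osr1, Eya1, Meox1 and Crym are named only. Each line gives the 250 bases before the start of the transcript that begins farthest upstream, read 5′ to 3′ along the gene, and all 4 genes lie on the minus strand. Capitals mark the letters of a GC box (the motif is GGGCGG), of a CCAAT box or of a TATA box (the motif is TATAAA). Both strands were searched, so that a GC box on the other strand reads CCGCCC and a CCAAT box there reads ATTGG. No matches overlapped.
Six2, chr17:85688255-85688504: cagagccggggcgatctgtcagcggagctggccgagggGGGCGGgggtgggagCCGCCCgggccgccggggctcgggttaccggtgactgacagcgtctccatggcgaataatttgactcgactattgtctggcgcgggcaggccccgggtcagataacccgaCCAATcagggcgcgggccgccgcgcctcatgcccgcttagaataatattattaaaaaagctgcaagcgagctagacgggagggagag
Cited1, chrX:102252182-102252431: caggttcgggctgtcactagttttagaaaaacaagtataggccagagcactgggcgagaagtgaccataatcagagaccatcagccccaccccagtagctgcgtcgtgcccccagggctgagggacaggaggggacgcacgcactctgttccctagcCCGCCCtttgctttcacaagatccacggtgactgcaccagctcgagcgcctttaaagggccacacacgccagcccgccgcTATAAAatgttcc
Sall1, chr8:89044163-89044412: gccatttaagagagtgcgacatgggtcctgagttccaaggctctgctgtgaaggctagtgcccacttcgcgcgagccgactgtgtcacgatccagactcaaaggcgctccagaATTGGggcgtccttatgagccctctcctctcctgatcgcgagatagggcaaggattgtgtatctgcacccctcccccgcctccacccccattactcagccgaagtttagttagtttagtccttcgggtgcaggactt
Itga8, chr2:12301945-12302194: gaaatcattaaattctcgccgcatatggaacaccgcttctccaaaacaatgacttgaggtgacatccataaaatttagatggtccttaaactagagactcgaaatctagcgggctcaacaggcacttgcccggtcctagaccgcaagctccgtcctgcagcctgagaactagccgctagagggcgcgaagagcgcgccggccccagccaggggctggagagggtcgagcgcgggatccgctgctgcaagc
The Six2 window held 2 GC boxes and a CCAAT box, and it held 26 CpG pairs. The windows shown held 13 for Cited1, 13 for Sall1 and 18 for Itga8, against a median of 6 over 32851 such windows of all genes. Windows of Sall1 starts farther downstream, which are not shown, held 30 and 25 CpG pairs and GC boxes. Windows of Cited1 starts farther downstream, also not shown, held 30 and 9 CpG pairs, the latter with the letters of a CCAAT box and a TATA box. The Cited1 window held a GC box and a TATA box whose letters lay 13 to 8 bases before the start, and none of the other 3 windows shown held the TATA letters. The Sall1 window held a CCAAT box on the other strand, and the Itga8 window held none of the 3. Of all windows, 32.7% held a GC box, 33.8% a CCAAT box and 12.4% a TATA box. An E-box (CACGTG, in 6.02% of windows), a TCF/LEF motif (CTTTGAT, in 3.21%) and an EGR/WT1 motif (in 2.57%, spelled GCGGGGGCG) were searched as well. So was the MEF3 motif, which Six2 and its relatives bind (TCAGGTTTC, in 0.387%). None of these was found in the 4 windows shown. The EGR/WT1 letters did lie in the Cited1 window with 30 CpG pairs, which is not shown, 75 to 67 bases before its start.

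Levels are given as log2 of a probe's processed intensity over the 75th percentile of its array, so that 0 is the level of a probe brighter than 75% of the others. A level is compared only with the same probe's level on other arrays. The scanner software's own error for a spot was 10.0% to 17.6% of the intensity for the 39 values of members that were well above background, at most 0.25 on the log2 scale. A gap between neighbouring levels is called clear below where it is over 2 combined spot errors, about 0.4 in most cases. This error covers the spot and not the labelling, the animal or the slide. Slide 1 held the arrays of the E13.5 kidney and of the 2-week transplant, and slide 2 held the other 3. Where 2 groups lie on different slides, the effect of the slide and that of the group cannot be told apart. In whole tissue, fewer cells of a type and less RNA per cell cannot be told apart either.

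Six2 was the member with the widest range. Its brightest probe had a level of 4.68 in the E13.5 kidney, 3.45 at P0, 2.14 in the 2-week transplant and 0.38 in the 4-week transplant, and at 8 weeks, at -7.29, it was not well above background. The intensities behind these levels were 41572, 18802, 7561, 1961 and 7.46. All neighbours in this order differed clearly, and both transplants lay between the newborn and the adult kidney. Against E13.5, Six2 was 2.35-fold lower at P0, 5.82-fold lower in the 2-week transplant (same slide), 19.7-fold lower in the 4-week transplant and at least 1069.1-fold lower at 8 weeks. The P0 difference was -1.23 on the log2 scale and -0.57, under 2-fold, with normexp background correction. With normexp on the negative controls it was -1.18. In the first of these corrections the background mean fitted for the E13.5 array was -992, against 20.7 to 27.5 for the others. Every difference from E13.5 given below with normexp background correction rests on that fit. Against the adult kidney Six2 was at least 183.8-fold higher in the 2-week transplant and at least 54.3-fold higher in the 4-week transplant, the latter on the same slide.

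The 3 Six2 probes gave the same order where they could be measured. Probe A_51_P354224 read 0.42 at E13.5, -0.91 at P0, -2.42 and -3.83 in the 2-week and 4-week transplants, and was not well above background at 8 weeks. Its folds against E13.5 were 2.52, 7.17 and 19.0, close to those of the brightest probe, A_55_P2033308. Probe A_55_P2119234 was well above background only at E13.5 (-3.13) and P0 (-5.01), where it was 3.69-fold lower, so for the transplants and the adult kidney it gives bounds of at least 8.35-fold, 7.29-fold and 4.77-fold below E13.5. The size of the adult difference therefore depends on the probe's brightness, since probe A_51_P354224 bounds it only at 55.7-fold. The same holds for the transplants against the adult kidney. There A_51_P354224 gives bounds of only 7.77-fold at 2 weeks and 2.94-fold at 4 weeks, and A_55_P2119234 gives none.

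**Figure D1:**
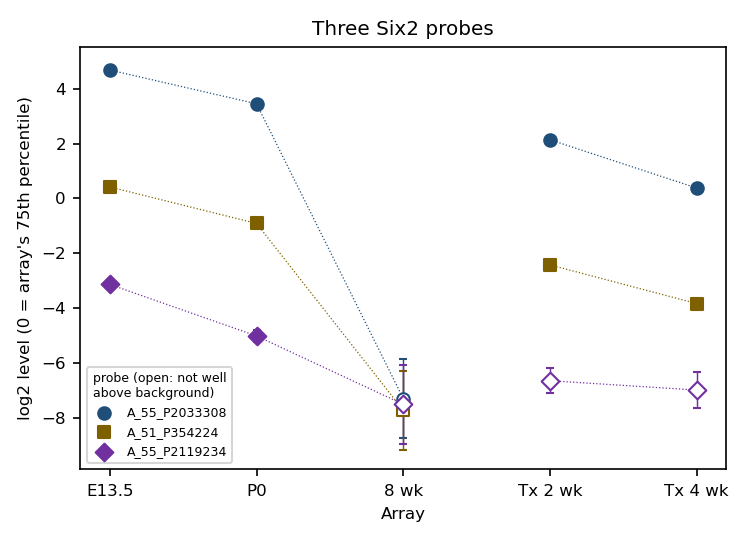
Level of the 3 Six2 probes on each array (y axis, log2 over the array's 75th percentile); filled symbols are values well above background, open symbols are not, and bars are the scanner software's error for the spot. The 2 brighter probes place all arrays but the 8-week kidney in the same order, and none of the 3 was well above background at 8 weeks.

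Cited1 held its level from E13.5 to birth and was far lower in the transplants. Its level was 4.48 at E13.5 and 4.49 at P0, values that were not clearly apart. With normexp background correction Cited1 was 0.60 higher at P0 on the log2 scale, and with normexp on the negative controls the difference was -0.02. It was then -1.73 in the 2-week transplant, -2.78 in the 4-week transplant and -4.43 in the adult kidney, all clearly apart. The 2-week transplant thus held 74.5-fold less Cited1 signal than the E13.5 kidney on the same slide, where Six2 differed 5.82-fold. The 4-week transplant held 154.2-fold less than the P0 kidney, also on the same slide, where Six2 differed 8.38-fold. Counted from the most reduced gene, Cited1 ranked 10 of 15846 genes measured on both arrays for the 2-week transplant against E13.5 and 3 of 14455 for the adult kidney against E13.5. In the transplants it was still 6.46-fold (2 weeks) and 3.14-fold (4 weeks) above the adult level. The last difference, 1.65 on the log2 scale, was 0.80 with normexp background correction and 0.96 with normexp on the negative controls, under 2-fold.

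Osr1 ordered the arrays differently. Its level was 0.66 at E13.5, -2.35 at P0, -0.82 in the 2-week transplant, -2.57 in the 4-week transplant and -4.62 at 8 weeks. It was the member that differed most between E13.5 and birth, 8.09-fold, and the 2-week transplant lay above the newborn kidney by 2.9-fold. The P0 kidney and the 4-week transplant were not clearly apart. The adult level was 39.0-fold below E13.5, with the 2-week transplant 14.0-fold and the 4-week transplant 4.14-fold above the adult. With normexp these log2 differences of -5.28, 3.80 and 2.05 became -3.65, 2.45 and 0.94, the last under 2-fold. With normexp on the negative controls they became -4.16, 2.74 and 1.18. Osr1 is also expressed in connective tissue fibroblasts, and the summed signal of 6 fibroblast genes, in multiples of the 75th percentile, was 47.9 at E13.5, 59.8 at P0, 416.0 and 300.0 in the 2-week and 4-week transplants and 6.99 at 8 weeks. At least 4 of the 6 were well above background on every array. Their part in the Osr1 level was not tested.

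Sall1 was lowest in the transplants, not in the adult. Its level was 0.98 at E13.5, -0.29 at P0 and -1.54 at 8 weeks, against -2.48 in the 2-week and -3.63 in the 4-week transplant, and all neighbours in this order were clearly apart. It was 2.42-fold lower at P0 than at E13.5 (log2 difference -1.27, or -0.92 and so under 2-fold with normexp background correction), 5.73-fold lower at 8 weeks, lower still in the 2-week transplant, with a log2 difference of -3.46, and 24.5-fold lower in the 4-week transplant. On slide 2 the 4-week transplant lay 4.28-fold below the adult kidney and 10.1-fold below the newborn kidney. Sall1 lay below all 3 kidneys in both transplants under every scaling tried, by 0.39 to 1.21 on the log2 scale at 2 weeks and 1.57 to 2.49 at 4 weeks. Six2, Cited1, Osr1, Meox1 and Itga8 lay within the range of the 3 kidneys in both transplants.

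Meox1 showed a narrower version of the Six2 order. Its level was 1.72 at E13.5, 0.14 at P0, -0.21 in the 2-week transplant, -0.70 in the 4-week transplant and -1.50 at 8 weeks. The P0 kidney and the 2-week transplant were not clearly apart. Against E13.5 it was 3.0-fold lower at P0, 3.82-fold and 5.34-fold lower in the 2-week and 4-week transplants, and 9.32-fold lower at 8 weeks. The summed signal of 9 skeletal muscle genes was 1.94 at E13.5 and 1.05 at P0. It was 1.01 and 0.716 in the 2-week and 4-week transplants and 0.203 at 8 weeks. Of the 9, 5 were well above background at E13.5, 4 at P0 and 3 on each other array. Their part in the Meox1 level was not tested.

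Eya1 stood apart from the other transcriptional regulators. Its level was 4.57 at E13.5, 4.55 at P0, 4.33 in the 2-week transplant, 4.02 in the 4-week transplant and 6.14 at 8 weeks, so it was highest in the adult kidney, 2.97-fold above E13.5. The adult level was clearly above the next lower one, that of E13.5. From E13.5 through P0 and the 2-week to the 4-week transplant no neighbours were clearly apart. The ends of that run, E13.5 and the 4-week transplant, differed by 0.55 on the log2 scale. With the authors' table, which has no percentile shift, the adult difference was 1.10 on the log2 scale in place of 1.57. With quantile normalization the 2-week transplant lay 0.24 above E13.5 in place of 0.23 below it.

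The pattern of the single Eya1 probe was shared by many probes of other genes. Within a root mean square distance of 0.1 on the log2 scale, after each probe's mean over the 5 arrays was taken off, lay 58 of the other probes among 21150 well above background on all arrays, for 50 named genes. For the 6362 probes that varied at least as much, the median number of such close neighbours was 1, and 1.32% had as many as Eya1. Meox1 had 3 such neighbours, and the other 6 members had 0. Ldlrad3 (distance 0.02), Epha5 and Hemgn (0.03 each) were the nearest genes when each gene was represented by its brightest probe and gene models were left out. Whether the Eya1 probe reads Eya1 transcript alone was not tested, and the counts of members that include it are given below without it as well.

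**Figure D2:**
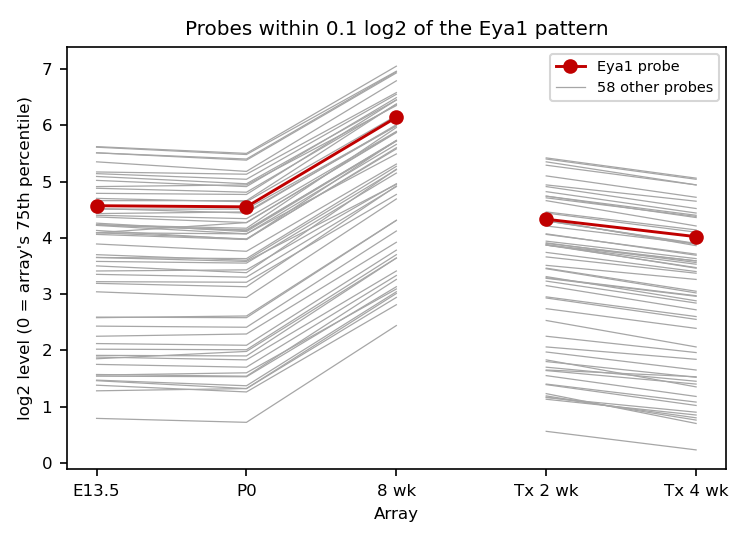
Level of the Eya1 probe (red) and of the 58 other probes within 0.1 log2 of its pattern (grey) on each array (y axis, log2 over the array's 75th percentile). The grey lines run parallel to the Eya1 line at mean levels from 0.95 to 5.73, with the 8-week kidney highest.

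Itga8 was the member whose level at birth was clearly above that on every other array. The level was 1.59 at E13.5 and 2.24 at P0, a difference of 0.65 that was clear of the spot error but under 2-fold (1.00 with normexp background correction), and then 0.36 in the 2-week transplant, 0.04 in the 4-week transplant and -1.38 at 8 weeks. The transplants were not clearly apart from each other. They lay 2.35-fold (under 2-fold with normexp, at a log2 difference of -0.82) and 2.92-fold below E13.5 and 3.34-fold and 2.69-fold above the adult kidney. Itga8 is also carried by mesangial and smooth muscle cells. The summed signal of 8 genes of those cells was 9.4 at E13.5, 60.9 at P0, 84.0 and 70.9 in the transplants and 9.3 at 8 weeks, with 7 of 8 genes well above background in the E13.5 and the adult kidney and all 8 on the other arrays, and its part in the Itga8 level was not tested.

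Crym was highest in the adult kidney, which has no cap mesenchyme. Its level was 1.32 at E13.5, 1.11 at P0, 3.26 in the 2-week transplant, 0.90 in the 4-week transplant and 4.19 at 8 weeks. The adult kidney was thus 7.3-fold above E13.5 and the 2-week transplant, on the same slide as E13.5, 3.84-fold above it. The E13.5, P0 and 4-week levels formed a group whose neighbours were not clearly apart. Between the transplants Crym was 5.16-fold lower at 4 weeks, the largest difference of any member in that comparison.

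**Figure D3:**
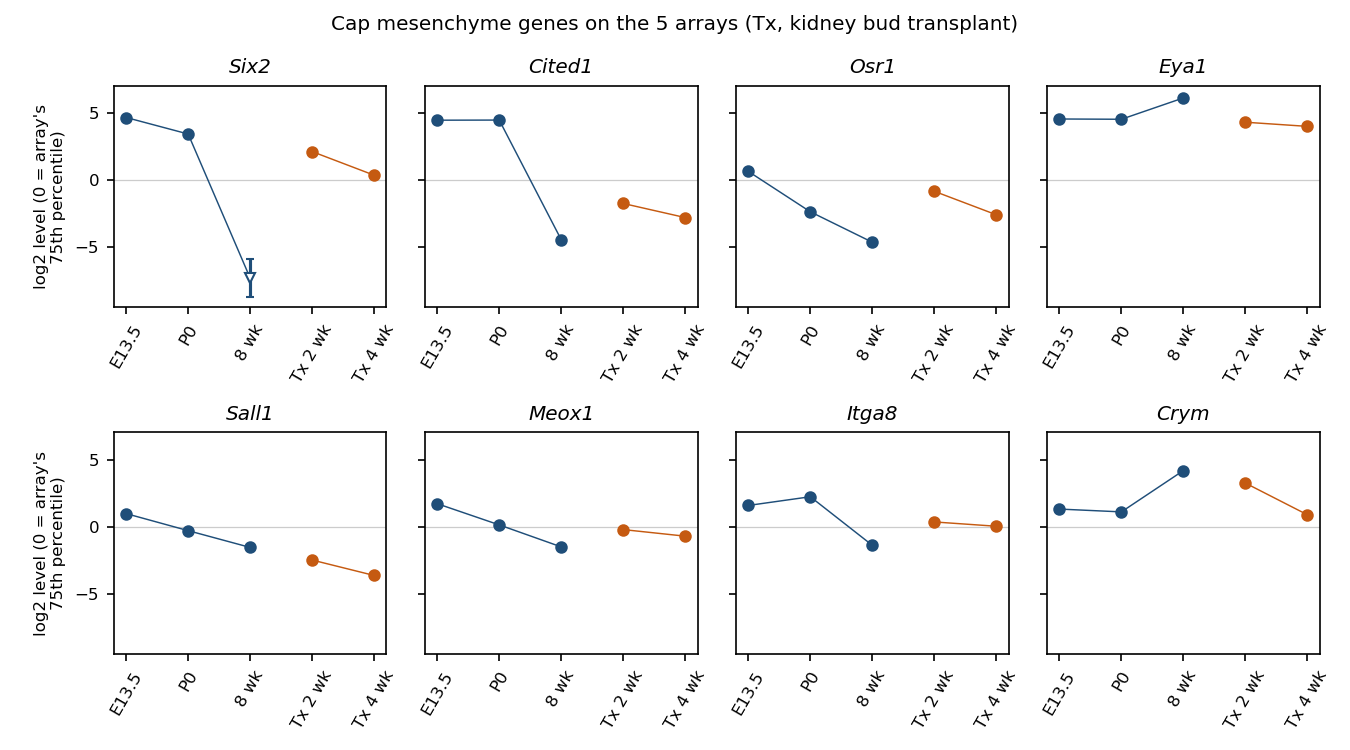
Level of each of the 8 genes (y axis, log2 over the array's 75th percentile) in the 3 kidneys (blue) and the 2-week and 4-week transplants (Tx, orange). Six2, Cited1, Osr1, Sall1, Meox1 and Itga8 are lower in the 8-week than in the E13.5 kidney, Eya1 and Crym are higher, and the open triangle marks Six2 at 8 weeks, not well above background, with the scanner software's spot error.

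Counted together, the members were mainly lower in the adult kidney and the transplants than in the embryo. At P0, 4 of 8 members were at least 2-fold lower than at E13.5 and 0 higher, where 11.9% of 17572 genes were lower and 13.9% higher. At 8 weeks 6 of 8 were lower and 2 higher, where 27.3% of 17637 genes were lower and 27.3% higher. In the 2-week transplant 6 were lower and 1 higher (20.3% and 21.4% of all genes), and in the 4-week transplant 6 were lower and 0 higher (21.8% and 24.4% of all genes). The median member differed by -0.73 (P0), -3.10 (8 weeks), -1.71 (2-week transplant) and -2.83 (4-week transplant) on the log2 scale, while the median of all genes lay between -0.12 and -0.02. Eya1 was never among the lower members, so the lower counts without it are the same out of 7. Without it 1 member was higher at 8 weeks, namely Crym. Since all 4 comparisons use the E13.5 array, they share whatever is particular to it.

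**Figure D4:**
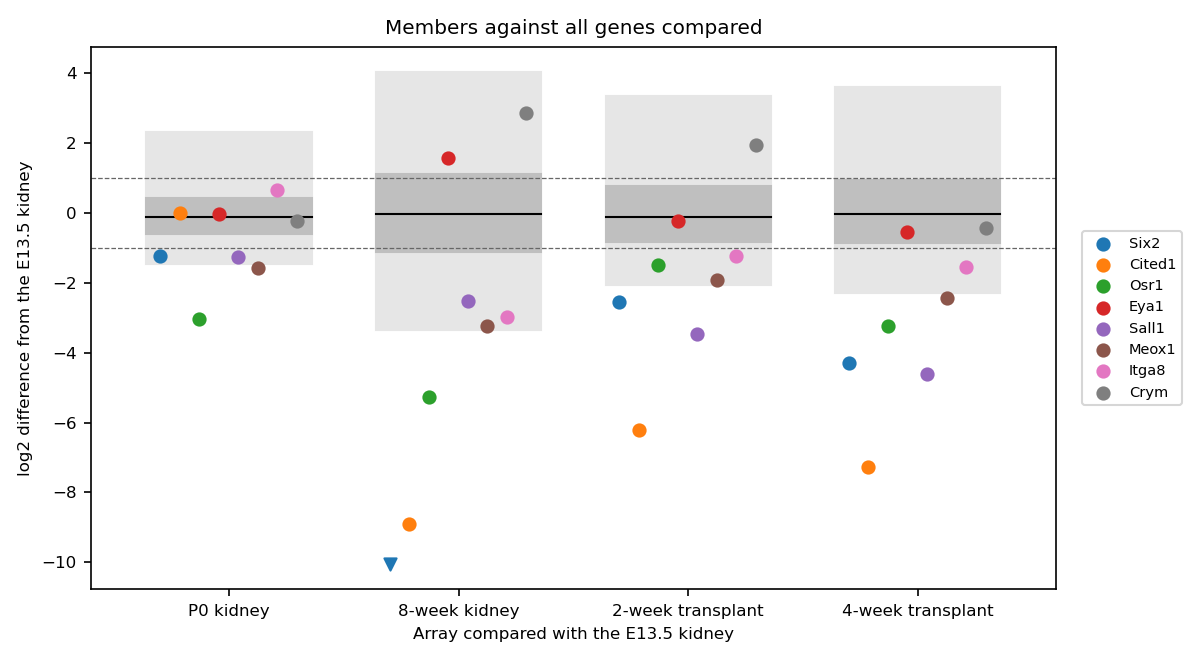
Log2 difference of each member from the E13.5 kidney (y axis) for the P0 kidney, the 8-week kidney and the 2 transplants; the black line, dark box and light box are the median, the 25th to 75th and the 5th to 95th percentile of all genes compared, and dashed lines mark 2-fold. Cited1 lies below the 5th percentile in all but the P0 kidney, and the triangle is the bound for Six2 at 8 weeks.

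Against the newborn and the adult kidney the members split. In the 4-week transplant, which shares its slide with both, 4 members were lower than at P0 (Six2, Cited1, Sall1 and Itga8) and 0 higher, where 13.9% of all genes were lower and 19.2% higher. In the 2-week transplant the same 4 were lower than at P0, where 11.8% of all genes were lower, and Osr1 and Crym higher (15.4%). Against the adult kidney 5 members were higher in the 2-week transplant (21.7% of all genes) and 4 in the 4-week transplant (22.3%), with Six2, Cited1, Osr1 and Itga8 among them each time. Lower than in the adult were Eya1 in the 2-week transplant (22.5% of all genes) and Eya1, Sall1 and Crym in the 4-week transplant (18.6%), which leaves 0 and 2 without Eya1. With normexp background correction Cited1 and Osr1 were within 2-fold of the adult level in the 4-week transplant, and with normexp on the negative controls Cited1 was. The adult kidney against P0, on 1 slide, had 6 members lower (21.0%) and 2 higher (23.6%), or 1 higher without Eya1, with Cited1 483.8-fold and Itga8 12.3-fold lower.

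From 2 to 4 weeks after transplantation 5 members were at least 2-fold lower and 0 higher, where 5.68% of 18493 genes were lower and 9.1% higher. The 5 were Crym (5.16-fold), Six2 (3.38-fold), Osr1 (3.37-fold), Sall1 (2.23-fold) and Cited1 (2.06-fold). Eya1, Meox1 and Itga8 were lower too, by less than 2-fold. These arrays lay on different slides, and Cited1 and Sall1 were under 2-fold with either normexp background correction.

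Cells outside the nephron lineage differed between the transplants and the kidneys as well. The summed signal of 8 adipocyte genes was 1.91 at E13.5, 33.3 at P0, 197.0 and 495.0 in the 2-week and 4-week transplants and 4.73 at 8 weeks. All 8 were well above background in both transplants, but only 3 at E13.5, 4 at P0 and 4 at 8 weeks. Most of the sum in each kidney came from 1 gene, Fabp4, with levels of 0.67, 5.03 and 2.05 at E13.5, P0 and 8 weeks. Adipoq and Cfd were well above background in the transplants alone. That of 6 adrenal cortex genes was 204.0 in the 4-week transplant and 0.215 to 0.363 elsewhere, with Cyp11a1 and Cyp11b1 well above background on that array only. Of 8 cell cycle genes all were at least 2-fold lower than at E13.5 in the adult kidney and both transplants (medians -6.78, -3.38 and -3.83), and 3 at P0. The shares of all genes that were lower were 27.3%, 20.3%, 21.8% and 11.9%. The part of these cells and of cell division in the members' levels was not tested.

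Other genes of the cap mesenchyme gave a similar count. Of 20 such genes, chosen like the members with results of these data known, 8 were at least 2-fold lower at P0 than at E13.5, 17 at 8 weeks, 12 in the 2-week and 15 in the 4-week transplant, with medians of -0.69, -3.76, -1.47 and -1.85. The shares of all genes that were lower were 11.9%, 27.3%, 20.3% and 21.8%. Gdnf, which draws out and feeds the ureteric bud, was 1.51-fold lower at P0 but 159.8-fold and 162.8-fold lower in the 2-week and 4-week transplants and at least 268.5-fold lower at 8 weeks, an order like that of Cited1. Mycn, a growth regulator, was 21.9-fold, 35.0-fold and 40.6-fold lower in the 2-week transplant, the 4-week transplant and the adult kidney. The homeobox gene Uncx was 50.4-fold, 56.6-fold and 26.4-fold lower on the same arrays, and lay, like Sall1, lower in the transplants than in the adult. Rspo1, a Wnt signal enhancer, was 6.13-fold and 9.34-fold lower in the transplants and at least 306.6-fold lower at 8 weeks.

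Some of these genes are also made by other kidney cells. Wt1, which podocytes also express, was 2.96-fold and 5.9-fold lower in the transplants and 26.8-fold lower at 8 weeks, while the summed signal of 6 podocyte genes was 1.04 at E13.5, 33.3 and 16.3 in the transplants and 9.14 at 8 weeks. Bmp7, a survival signal for the progenitors that tubules also make, was within 2-fold of E13.5 at 8 weeks and 2.58-fold and 2.63-fold lower in the transplants.

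**Figure D5:**
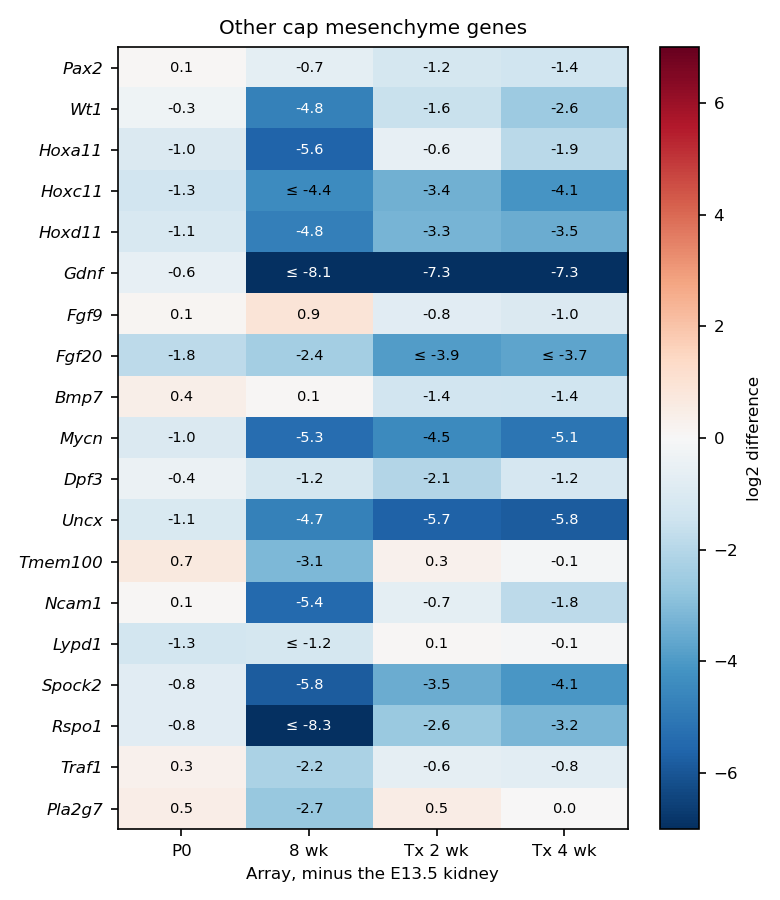
Log2 difference from the E13.5 kidney (colour and number) for other cap mesenchyme genes in the P0 kidney, the 8-week kidney and the 2-week and 4-week transplants (Tx); the sign ≤ marks a bound where the gene was not well above background. Gdnf is among the lowest in all columns but P0, and Uncx is lower in both transplants than in the 8-week kidney.

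Most genes that mark the forming nephron were lower in the transplants than in the E13.5 kidney. Of 10 genes of nephron induction 7 were at least 2-fold lower in the 2-week transplant, 6 in the 4-week transplant and 7 at 8 weeks, and 0 at P0, where 3 were higher. At 8 weeks 1 was higher, Pax8, with levels of -0.06 at E13.5 and 1.16 at 8 weeks. The shares of all genes that were lower were 20.3%, 21.8%, 27.3% and 11.9%. Among all genes 13.9% were higher at P0 and 27.3% at 8 weeks. Wnt4, the signal for epithelial conversion, had levels of 2.52 at E13.5, 3.69 at P0, 0.96 and 1.92 in the transplants and -3.37 at 8 weeks. Lhx1, needed in the first nephron vesicles, was 34.6-fold and 29.5-fold lower in the 2-week and 4-week transplants but 2.52-fold lower in the adult. Fgf8 stood at -0.37 at E13.5 and -0.61 at P0, against -5.26 and -4.57 in the transplants. Wnt9b, the inducing signal from the bud, had levels of -1.09 and -0.71 in the E13.5 and P0 kidneys and between -2.69 and -2.99 on the other 3 arrays.

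The partners of integrin alpha8 varied among themselves. Of 9 genes for its ligands and their anchors, 0 were lower and 1 higher at P0 than at E13.5, 2 lower and 3 higher in the 2-week transplant, 4 lower and 1 higher in the 4-week transplant, and 4 of 8 measured lower at 8 weeks. Among all genes 11.9% were lower and 13.9% higher at P0, 20.3% and 21.4% in the 2-week transplant and 21.8% and 24.4% in the 4-week transplant. At 8 weeks 27.3% were lower. Several of the counts thus lie near the share of all genes. Npnt, which encodes nephronectin, was 7.63-fold higher at P0 and 3.77-fold higher in the 2-week transplant. Itgb1, the beta subunit that pairs with Itga8, was within 2-fold of E13.5 on every other array. Fn1 (fibronectin) was 3.5-fold and Vtn (vitronectin) at least 69.4-fold higher in the 2-week transplant. Frem1, a basement membrane anchor for nephronectin, had the order of Itga8, with levels of 1.79 at E13.5, 2.22 at P0, 1.04 and 0.42 in the 2-week and 4-week transplants and -2.76 at 8 weeks.

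Genes that handle thyroid hormone, the ligand that Crym binds, were mainly higher in the transplants and the adult kidney than in the E13.5 kidney. At P0, 4 of 9 such genes were at least 2-fold above E13.5 and 1 below, 9 were higher in the 2-week and 8 in the 4-week transplant, and 5 of 8 measured at 8 weeks. The shares of all genes that were higher were 13.9% at P0 (11.9% lower), 21.4% and 24.4% in the 2-week and 4-week transplants and 27.3% at 8 weeks. The activating enzyme Dio1 was at least 66.7-fold and the receptor gene Thrb at least 52.0-fold higher at 8 weeks. Dio2 and Dio3, with levels of -4.62 and -4.72 at E13.5, were not well above background at 8 weeks. Crym itself was 7.3-fold higher at 8 weeks and 3.84-fold higher in the 2-week transplant, and 1.34-fold lower in the 4-week transplant.

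The genes nearest in pattern to each member over the 5 arrays were found by the same root mean square distance. For Six2 they were H19 (0.50), Igf2 (0.92) and Vcan (1.11) among 14374 genes searched, the first pair being imprinted genes of fetal tissue. For Cited1 they were Capn6 (1.16), Mest (1.30) and Cdca7 (1.36) among 12883 genes, a larger distance than that of any other member to its nearest gene. For Sall1 they were Haspin (0.20), Ska3 (0.23) and Nt5dc2 (0.32), and for Osr1 Cntfr (0.19), Actn3 (0.39) and Pcdh19 (0.40). For Meox1 they were Mex3d (0.05), Pwwp3b (0.10) and Tnfrsf25 (0.10), for Itga8 Frat2 (0.19), Tox3 (0.24) and Cpne5 (0.26), and for Crym Bfsp2 (0.57), Slc16a13 (0.58) and Tec (0.58). Among the members themselves the nearest pair was Meox1 and Itga8, at 0.78, and the farthest of those well above background on all arrays Cited1 and Crym, at 4.71. Distances of Six2 rest in part on its 8-week value, which was not well above background. With 5 arrays such nearness describes these arrays and nothing beyond them.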

How the data were processed

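RNA was labelled with Cy3 and hybridised to Agilent mouse arrays, 1 for each of 5 groups, which the titles name. Processed intensity per spot comes from the deposited scanner files and was background-subtracted with Agilent Feature Extraction (version 10.7.3.1), as the file headers say. Flags for dim, saturated and outlying spots come with it. The authors' deposited table holds log2 values: 99.5% of them were within 0.01 of the log2 processed signal when no percentile shift was made, probes of a gene were averaged and each of 30224 rows was centred.

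The value used was log2 of the ratio of intensity to the 75th percentile of its array (1619.7 at E13.5, 1720.1 at P0, 1713.4 and 1503.9 in the transplants, 1170.2 at 8 weeks). Of 44397 spots, 43020 were not controls. No spot was saturated, and outlier spots were left out. Between 60.9% and 69.1% of gene spots were well above background. A gene was represented by its brightest probe. Probes were named through the gene identifiers of the authors' table and RefSeq: 33840 of 39429 got a name. Where a probe was not well above background in 1 of a pair of arrays, the fold is a bound ("at least") against the higher of the probe's own signal and the lowest signal well above background there. A gene below it on both was left out. The SD of replicate spots, on the log2 scale, had a median of 0.0517 to 0.06 by array.

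The members and gene lists were chosen with earlier results of these data known. Every member and list gene, and the 3 genes nearest in pattern to each member, could be named, but a few genes of the lists are counted and not reported here by name. There was no statistical test, as no group had a replicate. A simulated data set was used to check the computation. Alternatives were normexp background correction (limma 3.58.1 in R 4.3.3, offset 50), the same with negative control spots, the authors' table, quantile normalization, a mean over probes, each other Six2 probe, no background filter and a 4-fold threshold. Counts without Eya1 and without Six2 were added after seeing the data.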

Additional observations from a re-analysis of the deposited data

How the results depend on the processing

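Of 497 alternative values for the members' differences, 416 moved by at most 2 combined spot errors, 81 moved more and 0 called differences changed direction. Many of the 416 could not move. A mean over probes leaves a member with 1 probe as it is, and dropping the background filter alters only Six2 at 8 weeks. For Six2 at 8 weeks 2 combined spot errors came to 2.89 on the log2 scale, so its change from -10.06 to -7.56 against E13.5 with normexp is among the 416. The 416 is therefore no measure of how stable the values are. For E13.5 the background mean that normexp fitted was -992, against 20.7 to 27.5 for the others. With normexp, 2 members were at least 2-fold lower at P0 than at E13.5 in place of 4, where 33.8% of all genes were lower, and Six2 (-0.57) and Sall1 (-0.92) were the calls lost. With normexp on the negative controls 4 members were lower at P0, as in the main setting, where 8.13% of all genes were lower. From the 2-week to the 4-week transplant 3 were lower with normexp and 3 with normexp on the negative controls, in place of 5. At a 4-fold threshold 1 member was lower at P0, 3 in the 2-week transplant (in place of 6) and 1 from 2 to 4 weeks. Of the other cap mesenchyme genes 1 in place of 8 was 4-fold lower at P0 and 9 in place of 15 in the 4-week transplant. The stricter threshold makes these counts smaller by construction, and for the others the cause was not tested.

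The share of lower genes among all genes past 2-fold moved with the scaling. With normexp it was 83.7% at P0 against E13.5 (main setting 46.1%), 71.1% at 8 weeks (49.9%), 78.7% in the 2-week transplant (48.6%) and 76.1% in the 4-week transplant (47.2%). With the authors' table it was 65.0% at 8 weeks against E13.5, 71.0% against P0 (47.0%), 28.1% in the 2-week (50.9%) and 30.0% in the 4-week transplant (45.5%) against 8 weeks, and 53.8% between the transplants (38.5%). The median of all genes then shifted from -0.03 to -0.53 at 8 weeks against E13.5. Eya1 in the transplants was lowest of all arrays in the main setting and within the range of the kidneys with normexp, as was the 2-week transplant with quantile normalization. No paired analysis was possible because each group has 1 array and the labels carry no replicate numbers, and for the same reason no array could be left out. Signal over background limits Six2 at 8 weeks, which has only a bound.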

Other observations

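Of 18 genes related to the members by gene family Six6 and Sall3 were not well above background on any array, and of the other 16, 6 were at least 2-fold lower and 2 higher at P0 than at E13.5, 9 lower and 3 higher at 8 weeks, 5 lower and 3 higher in the 2-week transplant, and 6 lower and 2 higher in the 4-week transplant. Of all genes 11.9%, 27.3%, 20.3% and 21.8% were lower in these comparisons, and 13.9%, 27.3%, 21.4% and 24.4% were higher. Meox2, the relative of Meox1, had levels of 2.01 at E13.5, -0.98 at P0, and -1.29 and -0.91 in the 2-week and 4-week transplants, and at 8 weeks it was at least 168.0-fold lower than at E13.5. Sall2 was 5.06-fold and 8.79-fold lower in the transplants and 6.1-fold lower at 8 weeks, and Six4 3.36-fold, 4.43-fold and 5.87-fold lower.

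Eya2 was highest in the 2-week transplant, with levels of 1.77 at E13.5, 1.17 at P0, 3.20 and 2.02 in the 2-week and 4-week transplants and -1.73 at 8 weeks. It was 2.69-fold higher in the 2-week transplant than in the E13.5 kidney on the same slide. Eya4 was 7.55-fold and 9.43-fold lower in the transplants and at least 25.2-fold lower at 8 weeks. Cited2, the relative of Cited1, was within 2-fold of E13.5 on every other array.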
